A study of Homo sapiens with 24 samples.

Results

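The comparison asked which genes differed between 24 h and 4 h of estrogen treatment in breast cancer cells that had received siRNA against HER2. Its members were the 6 arrays, of 24 in all, whose titles name HER2 siRNA and 10 nM estrogen, with 3 arrays at 24 h and 3 at 4 h. The cells were BT-474, an established human breast cancer line in which the ERBB2 gene is amplified and which carries an estrogen receptor. Vehicle for estrogen was 0.001% ethanol. Of the other 18 arrays, 6 were used for HER2 siRNA with vehicle at 24 h and 4 h and 6 for control siRNA with estrogen at 24 h and 4 h, again 3 a group. The last 6, control siRNA with vehicle, entered only the choice of probe sets and genes tested, the shared estimate of the spread and 1 correlation. The labels name 1 cell line, give neither the siRNA sequences nor the time between siRNA and hormone, and name no separate cultures for the replicates. The p-values therefore measure the spread between these arrays, which may be technical.

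Estrogen acts through its receptor, a transcription factor that enters its target genes within minutes to hours. Early targets include transcription factors and growth regulators, and secreted proteins and genes of DNA replication tend to follow later as cells pass from G1 into S phase. HER2 is a receptor tyrosine kinase whose signalling through the MAPK and PI3K pathways drives growth in cells that carry many copies of its gene, and PI3K signalling keeps FOXO transcription factors out of the nucleus. Differences between 24 h and 4 h with vehicle and with control siRNA are given beside those of this comparison for some lists and genes.

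Levels are log2 RMA values for 1 probe set per gene, and 14335 genes were tested. A difference is 24 h minus 4 h on the log2 scale with its standard error from limma, and a gene is said to have risen or fallen where its adjusted p was under 0.05. Array medians lay between 5.28 and 5.36. All 10 luminal markers checked (ESR1, GATA3, FOXA1, KRT8, KRT18, KRT19, CDH1, EPCAM, SPDEF and ERBB2) had levels between 8.69 and 13.55 on the 6 arrays. Their summed level was 119.8 to 120.9 at 24 h and 119.5 to 121.0 at 4 h, and none passed the test. In the wider list of 20 luminal genes 4 fell, as given with the other lists. The leukocyte markers, 5 of 6 on the array, had levels between 3.57 and 5.81. Their summed level was 22.5 to 23.2 at 24 h and 22.3 to 23.9 at 4 h. Some markers of other cell types were well above that range on these arrays. VIM, of mesenchymal cells, had levels of 9.45 to 10.23, COL1A1, a collagen of fibroblasts, 9.38 to 10.02 and VWF, of endothelial cells, 7.07 to 7.6. The summed level of the basal and mesenchymal markers was 28.2 to 29.2 at 24 h and 27.8 to 28.9 at 4 h, that of the fibroblast markers 27.3 to 27.9 at 24 h and 27.2 to 27.9 at 4 h, and that of the endothelial markers 20.3 to 20.5 at 24 h and 20.1 to 20.8 at 4 h. None of the tested markers of these classes passed.

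The 6 arrays separated by time along the first principal component, which held 51.6% of the variance. The scores were -7.31, -10.25 and -21.87 at 24 h and 23.41, 12.31 and 3.71 at 4 h for replicates 1 to 3, so the groups did not overlap. At 4 h, 2 arrays need a remark. Replicate 1 at 4 h is 1 of 3 arrays in the series whose running number stands apart from the other 21. Its ACTB 3' minus 5' control signal, a sign of RNA length, was 2.30, against 1.33 and 0.94 for replicates 2 and 3 at 4 h and 1.42, 1.37 and 1.47 at 24 h. The GAPDH control averaged 0.451 ± 0.019 at 24 h and 0.451 ± 0.069 at 4 h (SD, n = 3 each, exact permutation p = 1, where 3 against 3 arrays cannot give less than 0.10). The ACTB control averaged 1.42 ± 0.06 at 24 h and 1.52 ± 0.70 at 4 h (SD, n = 3 each, exact permutation p = 1). Replicate 3 at 4 h has a source name that says 24 h, while its title, description and characteristics say 4 h, and it was placed at 4 h. Its highest correlation was with replicate 2 at 4 h (r = 0.9956 across genes), against 0.9936 with replicate 1 at 24 h. Over the 903 genes that passed the test without it, it lay a median of 31.1% of the way from the other 4 h arrays to the 24 h mean. Replicate 1 at 24 h lay 32.9% of the way from the other 24 h arrays to the 4 h mean over the 844 genes called without it.

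**Figure D1:**
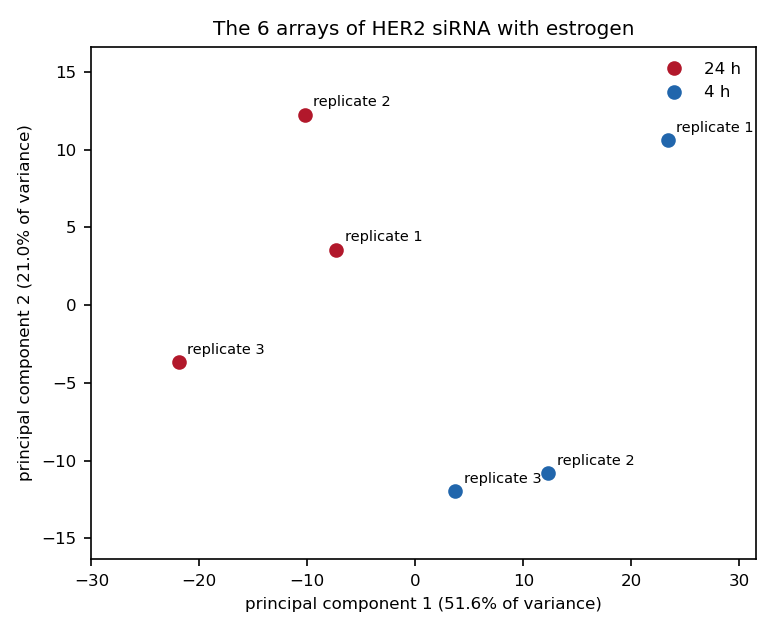
The 6 arrays of HER2 siRNA with estrogen on their first and second principal components (axes in component scores over 14335 genes, 1 point per array, 24 h red and 4 h blue). The 24 h arrays have scores of -21.87 to -7.31 on the first component and the 4 h arrays 3.71 to 23.41, with replicate 1 at 4 h farthest to the right.

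ERBB2, the gene the siRNA targets, had levels of 12.22, 12.44 and 12.33 at 24 h and 12.20, 12.12 and 12.32 at 4 h with HER2 siRNA and estrogen. The groups overlapped, and the difference of 0.12 ± 0.11 did not pass the test (adjusted p = 0.641). With control siRNA and estrogen ERBB2 averaged 13.42 ± 0.04 at 24 h and 13.56 ± 0.07 at 4 h (SD, n = 3 each), above each of the 6 arrays with HER2 siRNA. With HER2 siRNA and vehicle ERBB2 rose by 0.44 ± 0.11, and the difference between the time effects with estrogen and with vehicle did not pass (adjusted p = 0.631).

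Between 24 h and 4 h, 890 of the 14335 genes (6.21%) differed. Of these 438 (3.06%) rose and 452 (3.15%) fell, and 56 rose and 16 fell by 2-fold or more. The median difference over all genes was -0.009. The groups did not overlap in 878 of the 890 genes. Over all genes tested, the 24 h arrays were all higher than the 4 h arrays in 1542 and all lower in 1784. The count was 422 without replicate 3 at 24 h, 506 without replicate 1 at 4 h, 540 without replicate 2 at 4 h and 547 without replicate 2 at 24 h. It was 844 without replicate 1 at 24 h and 903 without replicate 3 at 4 h. It was 507 without the 3 arrays numbered apart.

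The 15 genes with the largest rise and the 15 with the largest fall were taken among genes whose arrays did not overlap between times, so that their groups are apart is part of the choice. TCN1, which encodes the vitamin B12 binding protein haptocorrin, had levels of 11.80, 11.95 and 11.98 at 24 h and 8.66, 8.07 and 8.16 at 4 h. It was 12.3-fold higher at 24 h (95% interval 8.38 to 17.9, difference 3.62 ± 0.26, adjusted p = 2.2e-08). KLK11, a secreted kallikrein-related protease, had levels of 8.24, 8.99 and 9.07 at 24 h and 6.02, 6.36 and 6.32 at 4 h, a difference of 2.54 ± 0.18. In both genes each 24 h array stood above each 4 h array. KLK10, a related protease, had levels of 6.96, 7.46 and 7.84 at 24 h and 5.08, 5.34 and 5.22 at 4 h. DSCAM-AS1, a long noncoding RNA known from estrogen receptor positive breast cancer, had levels of 10.74, 11.11 and 11.36 at 24 h and 8.82, 8.91 and 8.95 at 4 h. KLK10 rose by 2.21 ± 0.16 and DSCAM-AS1 by 2.18 ± 0.15, with replicate 1 the lowest of the 24 h arrays in both. SLC6A14, an amino acid transporter, rose by 2.43 ± 0.23, MAN1A1, a Golgi mannosidase that trims N-glycans, by 1.95 ± 0.17, and THSD4, a secreted protein of the extracellular matrix, by 1.85 ± 0.11.

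Other genes among the 15 with the largest rises act in signalling. RGS7, which shortens G protein signals, rose by 1.99 ± 0.33, RASGRP1, an exchange factor for Ras, by 1.75 ± 0.32, and CAV1, the coat protein of caveolae, by 1.58 ± 0.26. ALPP, placental alkaline phosphatase, had levels of 6.02, 6.66 and 6.41 at 24 h and 4.66, 4.46 and 4.74 at 4 h. HERC5, a ligase for the ubiquitin-like protein ISG15, had levels of 7.04, 6.58 and 6.58 at 24 h and 5.31, 4.95 and 4.95 at 4 h. ALPP rose by 1.75 ± 0.15 and HERC5 by 1.66 ± 0.15. ALPP and RGS7 had no 4 h array at the log2 level of 5 used as the filter, so they were tested only because of groups in which they were higher. HERC5 reached that level on 3 arrays at 24 h, 1 array at 4 h and no array of the other groups. It thus passed the filter only through this condition, mainly at 24 h, where it was higher. CAV1 reached the level on all 3 arrays with HER2 siRNA at 24 h, both with estrogen and with vehicle. It did so on 2 arrays at 4 h with HER2 siRNA and estrogen and on none of the other groups. CAV1 was thus tested only because of 24 h arrays, where it was higher. FYB2 rose by 1.98 ± 0.45, but its call ended without replicate 3 at 24 h (adjusted p = 0.0828) and without replicate 1 at 4 h (adjusted p = 0.072). Of the 15 genes only FYB2 lost its call on leaving out an array.

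**Figure D2:**
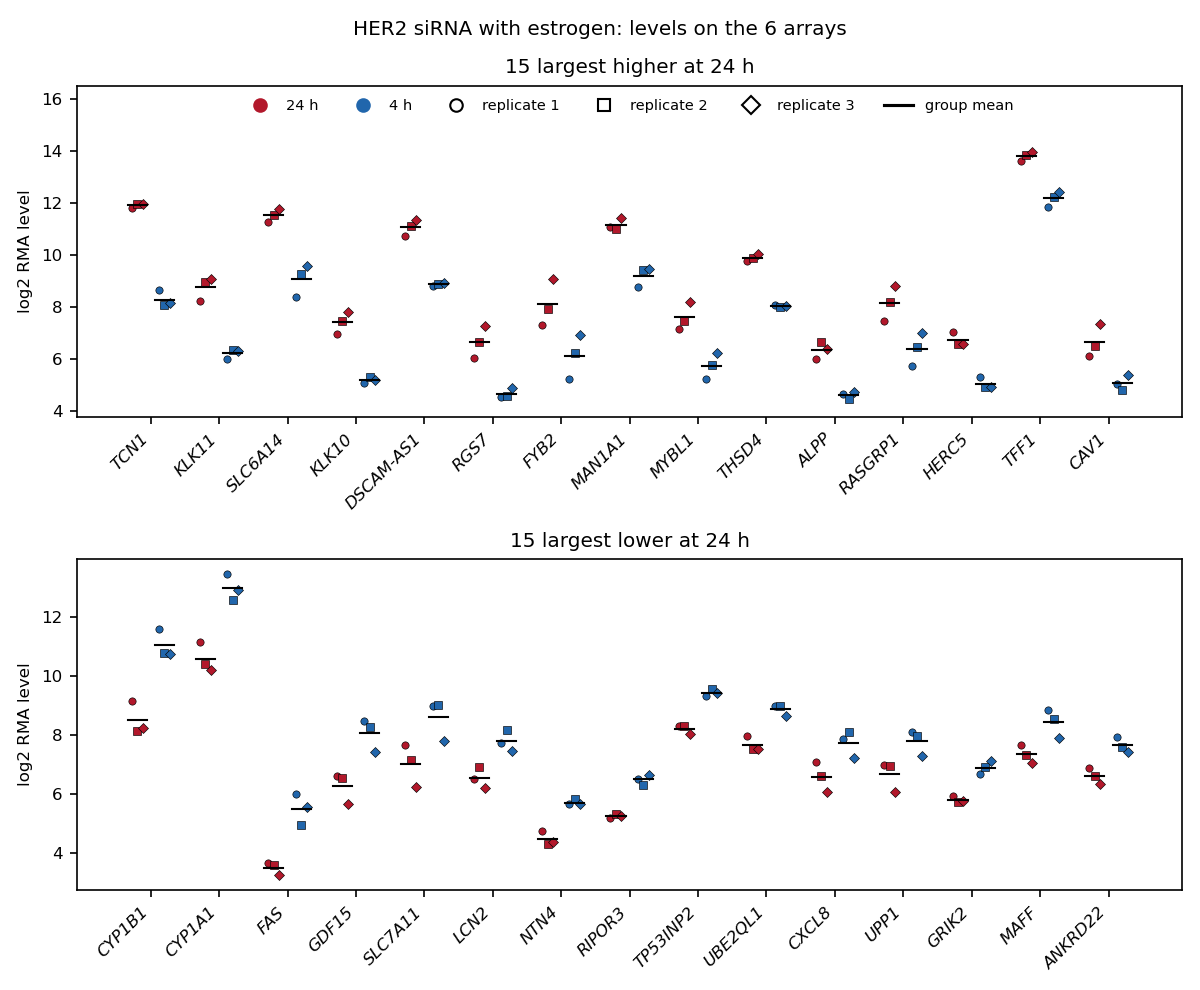
Log2 RMA levels (vertical axis) of the 15 genes with the largest rise and the 15 with the largest fall whose groups did not overlap, in HER2 siRNA with estrogen at 24 h (red) and 4 h (blue). Each point is an array, its shape gives the replicate number and the line is the mean of 3. TCN1 lies between 11.80 and 11.98 at 24 h and between 8.07 and 8.66 at 4 h, and CYP1B1 between 8.14 and 9.17 at 24 h and between 10.77 and 11.61 at 4 h.

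Genes known as estrogen-induced formed the list with the highest median. Of 40 tested members 15 rose and 2 fell, which is 37.5% and 5.0% against 3.06% and 3.15% of all genes, with a median difference of 0.30 against -0.009. TFF1, a secreted trefoil peptide, had levels of 13.63, 13.83 and 13.96 at 24 h and 11.87, 12.23 and 12.44 at 4 h, a rise of 1.63 ± 0.16. SUSD3, a membrane protein, had levels of 8.57, 8.76 and 9.0 at 24 h and 7.17, 7.34 and 7.62 at 4 h, a rise of 1.40 ± 0.14. In both genes the lowest array at 24 h was above the highest at 4 h, and TFF1 was chosen among such genes. The groups did not overlap in 878 of the 890 genes called. IGFBP4, which binds insulin-like growth factors, rose by 1.16 ± 0.11, OLFM1, olfactomedin, by 1.07 ± 0.12 and MYBL1, a MYB family transcription factor, by 1.85 ± 0.29. For SUSD3 and MYBL1, 1 of 2 probe sets passed, and the other differed by 0.07 and -0.06. STC2, a secreted glycoprotein, had levels of 9.57, 10.19 and 10.66 at 24 h and 8.20, 8.58 and 9.11 at 4 h, and rose by 1.51 ± 0.21. PGR, the progesterone receptor, rose by 1.19 ± 0.26, and its call ended without replicate 3 at 24 h (adjusted p = 0.0526) or replicate 1 at 4 h (adjusted p = 0.0546). The members that fell were PTGES, a prostaglandin synthase (-0.47), and P2RY2, a nucleotide receptor (-0.49). The 23 members that did not pass include early targets such as GREB1 (0.70), MYC (0.54), CCND1 (0.21), RET (0.18) and EGR3 (0.06). The count of 15 was 10 without replicate 3 at 24 h, 10 without replicate 1 at 4 h and 17 without replicate 3 at 4 h. With control siRNA and estrogen 16 of the 40 rose and none fell, with a median of 0.39, where 2.53% of all genes rose and 3.43% fell. With HER2 siRNA and vehicle 2 rose and 1 fell, with a median of -0.02, where 3.03% of all genes rose and 3.43% fell.

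The insulin-like growth factor and insulin list had 13 tested members, with a median of 0.25. Of these 5 rose (38.5% against 3.06% of all genes) and none fell, and 3 rose without the 3 arrays numbered apart. With HER2 siRNA and vehicle 2 rose, with a median of 0.27, where 3.03% of all genes rose. The largest difference of a member was 2.28 there, against 1.16 with HER2 siRNA and estrogen. With control siRNA and estrogen 4 rose, with a median of 0.02, where 2.53% of all genes rose. IRS1, the adaptor that carries the receptor's signal, had levels of 8.94, 9.14 and 9.0 at 24 h and 8.02, 8.26 and 8.03 at 4 h, a rise of 0.92 ± 0.12. IGF1R, the receptor, rose by 0.72 ± 0.15, IGFBP5 by 0.78 ± 0.11 and GRB14, an adaptor that inhibits the insulin receptor, by 1.01. GRB14 reached the filter's level of 5 on no 4 h array of this condition. IGFBP4, described with the estrogen-induced genes, is the fifth. Its call and those of IRS1 and IGFBP5 held in every alternative run, while that of IGF1R ended when only the groups compared were fitted (adjusted p = 0.0705) and without the 3 arrays numbered apart. Of the 19 steroid receptors and coregulators, PGR and NR3C1, the glucocorticoid receptor (0.76 ± 0.11), rose, which is 10.5% against the same 3.06%. ESR1, the estrogen receptor itself, had levels of 9.02, 9.33 and 9.62 at 24 h and 8.69, 8.79 and 9.01 at 4 h, and its difference of 0.49 did not pass. Among the 12 HER family receptors and ligands only ERBB4 changed (8.3% against 3.15% of all genes), with a fall of 0.75 on the log2 scale. With the mean of its probe sets that call ended (adjusted p = 0.333).

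Of 50 genes of DNA replication 16 rose (32% against 3.06% of all genes) and 1 fell (2% against 3.15%), with a median of 0.28. The 4 with the smallest adjusted p were MCM6, a subunit of the replicative helicase, GINS2, of the complex that activates it, POLE2, a subunit of DNA polymerase epsilon, and MCM10, an initiation factor. MCM6 had levels of 9.71, 9.96 and 9.96 at 24 h and 9.35, 9.41 and 9.32 at 4 h. MCM6 rose by 0.52 ± 0.08, GINS2 by 0.53 ± 0.08, POLE2 by 0.77 ± 0.15 and MCM10 by 1.16 ± 0.23. No array at 24 h was below any array at 4 h in these 4 genes, as in 1542 of all 14335 genes. The groups were apart in 878 of the 890 genes called either way. The call of GINS2 ended with the mean of its probe sets (adjusted p = 0.0744) and that of MCM10 with only the groups compared in the fit (adjusted p = 0.0686). The other helicase subunits MCM2 (0.42), MCM3 (0.41) and MCM5 (0.43) rose as well, and MCM4 (0.14) and MCM7 (0.26) did not pass. CDC45, which joins the helicase to GINS, rose by 0.55, PRIM1, the primase, by 0.47 and POLA1 and POLA2, of DNA polymerase alpha, by 0.39 and 0.54. RFC5, a clamp loader subunit, was the member that fell (-0.36), and no member fell without replicate 2 or 3 at 24 h or replicate 1 or 2 at 4 h. The origin recognition genes ORC1 to ORC6 had differences of 0.01 to 0.51 and none passed. The count of 16 was 6 with only the groups compared in the fit, 9 without replicate 3 at 24 h, 12 without replicate 1 at 4 h and 14 without replicate 3 at 4 h.

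The promoters of those 4 genes are shown because 16 members of the list rose and because E2F factors, which drive S phase genes, are named in the title of the series. They are RefSeq sequences of GRCh38.p14, from 250 bases before to 50 bases after the gene's start, 5′ to 3′ on the gene's strand, with the letters searched for an E2F site (TTTGGCGC or TTTCCCGC, on either strand) in capitals. MCM6 lies on chr2:135876394-135876693 (minus strand), GINS2 on chr16:85688905-85689204 (minus), POLE2 on chr14:49688165-49688464 (minus) and MCM10 on chr10:13161308-13161607 (plus).
MCM6: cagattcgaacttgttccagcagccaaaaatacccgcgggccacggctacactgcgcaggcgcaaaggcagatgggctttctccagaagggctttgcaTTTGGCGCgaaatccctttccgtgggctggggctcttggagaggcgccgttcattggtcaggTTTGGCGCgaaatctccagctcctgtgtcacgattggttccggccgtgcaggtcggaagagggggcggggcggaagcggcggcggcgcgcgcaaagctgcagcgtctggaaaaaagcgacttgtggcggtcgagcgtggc
GINS2: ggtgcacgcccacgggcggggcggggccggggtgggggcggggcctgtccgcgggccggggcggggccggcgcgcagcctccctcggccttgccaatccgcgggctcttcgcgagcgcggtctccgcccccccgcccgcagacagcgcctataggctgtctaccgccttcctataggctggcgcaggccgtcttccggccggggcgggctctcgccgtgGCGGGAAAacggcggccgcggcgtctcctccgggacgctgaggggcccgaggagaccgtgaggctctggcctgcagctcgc
POLE2: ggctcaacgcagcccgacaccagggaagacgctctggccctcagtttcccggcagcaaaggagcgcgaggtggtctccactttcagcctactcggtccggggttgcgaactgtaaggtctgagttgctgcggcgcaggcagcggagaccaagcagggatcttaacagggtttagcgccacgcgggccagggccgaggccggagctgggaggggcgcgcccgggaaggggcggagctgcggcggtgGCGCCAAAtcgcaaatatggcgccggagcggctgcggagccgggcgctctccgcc
MCM10: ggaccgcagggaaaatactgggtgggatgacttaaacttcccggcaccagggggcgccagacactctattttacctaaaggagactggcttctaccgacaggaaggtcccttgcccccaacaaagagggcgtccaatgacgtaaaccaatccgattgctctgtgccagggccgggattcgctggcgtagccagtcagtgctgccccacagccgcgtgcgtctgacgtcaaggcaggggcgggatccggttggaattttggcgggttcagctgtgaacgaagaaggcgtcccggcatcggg
The MCM6 window holds 2 matches, whose first bases lie at -152 and -90 from the start, GINS2 holds 1 at -31 and POLE2 holds 1 at -5. The MCM10 window holds none of these letters. Among the 42 replication genes with a promoter in the table, 19 (45.2%) hold a match, as do 7 of the 14 that rose (50%), against 750 of all 27305 genes (2.7%). The 54 mitosis genes with a promoter hold it in 3 cases (5.6%), and 38 of them (70.4%) hold the CHR letters TTTGAA, against 1 of 42 replication genes (2.4%) and 18.2% of all genes. None of these motifs contains another. The CCAAT box letters (CCAAT, either strand) were in 77.8% of mitosis, 59.5% of replication and 39.7% of all promoters. A palindromic estrogen response element (GGTCA, any 3 bases, TGACC) was in none of the 28 estrogen-induced promoters in the table and in 20 of all 27305. FOXO-induced genes held the FOXO site TGTTTAC in 7 of 22 cases (31.8%), against 4.2% of all genes, and cholesterol and fatty acid genes held the sterol element ATCACCCCA in 1 of 23, against 0.3%. A match in these letters is a description of the sequence.

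Genes that supply nucleotides had 9 of 27 members higher (33.3% against 3.06% of all genes), 1 lower (3.7% against 3.15%) and a median of 0.17. IMPDH2, the rate-limiting enzyme of guanine nucleotide synthesis, had levels of 11.24, 11.52 and 11.54 at 24 h and 10.49, 10.58 and 10.60 at 4 h. IMPDH2 rose by 0.88 ± 0.08, CTPS1, which makes CTP, by 0.73 ± 0.11 and RRM2, the ribonucleotide reductase subunit that limits dNTP supply, by 0.62. The purine pathway enzymes PAICS (0.41 ± 0.07), GART (0.51) and PFAS (0.48) rose. ADSS1, an adenylosuccinate synthase, had levels of 6.44, 6.23 and 6.30 at 24 h and 7.06, 7.05 and 7.11 at 4 h, and fell by 0.74 on the log2 scale. TYMS, thymidylate synthase, did not pass (0.46, adjusted p = 0.0642), nor did TK1 (0.15). The count of 9 was 5 without replicate 3 at 24 h. It was 10 with control siRNA and estrogen (median 0.22) and 1 with HER2 siRNA and vehicle (median -0.05), where 2.53% and 3.03% of all genes rose. The call of PAICS ended with only the groups compared in the fit (adjusted p = 0.0721).

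Of 16 genes of DNA repair by recombination 4 rose (25% against 3.06% of all genes) and none fell, with a median of 0.29. They were EXO1, an exonuclease (0.78 ± 0.17), BRCA1 (0.61 ± 0.13), its partner BARD1 (0.50 ± 0.14) and RAD51C (0.45 ± 0.11). The count was 2 without replicate 1 at 4 h, without replicate 2 at 24 h or without replicate 3 at 24 h, and the calls of BARD1 and RAD51C ended in each of these. With averaged probe sets EXO1 alone passed, and BRCA1 differed by 0.206 (adjusted p = 0.292). Of 15 cyclins, kinases and inhibitors of the G1 to S step, CCNE2, cyclin E2 (0.51 ± 0.09), CDK6 (0.65 ± 0.13) and SKP2 (0.29 ± 0.08) rose and the inhibitor CDKN2D fell by 0.42 on the log2 scale. That is 20% higher and 6.7% lower, against 3.06% and 3.15% of all genes. Only CDK6 kept its call in every alternative run. CDKN2D and SKP2 lost theirs in 5 of the 6 fits that left out 1 array, all but that without replicate 3 at 4 h (adjusted p = 0.225 and 0.152 without replicate 1 at 4 h), and CCNE2 with the mean of its probe sets (adjusted p = 0.34). None of the 12 E2F and pocket protein genes passed, with 3 higher and 1 lower at an unadjusted p under 0.05 by limma, where 9.15% of all genes were higher and 10.3% lower, and a difference of 0.14 ± 0.14 for E2F1.

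Of 61 mitosis genes 1 rose (1.6%, against 3.06% of all genes), none fell and the median was 0.00, with differences between -0.36 and 0.44. The member that rose was NCAPH, a condensin subunit, with levels of 6.68, 7.0 and 6.72 at 24 h and 6.58, 6.03 and 6.45 at 4 h. Its call ended without replicate 2 at 24 h (adjusted p = 0.193), replicate 3 at 24 h (adjusted p = 0.0834) or replicate 2 at 4 h (adjusted p = 0.24). The proliferation marker MKI67 differed by 0.24, CDK1, the mitotic kinase, by 0.37, TOP2A, topoisomerase II, by 0.10, CCNB1, cyclin B1, by -0.08 and ASPM, a spindle protein, by -0.36, and none of these passed. At an unadjusted p under 0.05 by limma, 5 mitosis genes were higher (8.2%) and 1 lower (1.6%), against 9.15% and 10.3% of all genes. In bulk samples a lower share of dividing cells and less of an RNA per cell cannot be told apart.

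The same genes in the other conditions lay on either side. With HER2 siRNA and vehicle none of the 61 mitosis genes rose, 18 fell and the median was -0.42, where 3.03% of all genes rose and 3.43% fell. With control siRNA and estrogen 16 rose, none fell and the median was 0.43, where 2.53% of all genes rose and 3.43% fell. The arrays of these comparisons are not shared with those of HER2 siRNA and estrogen. As a test of the difference itself, the time effect with estrogen minus that with vehicle passed for NCAPH alone (0.83, adjusted p = 0.0401), with 24 members higher (39.3%) and none lower at an unadjusted p under 0.05, against 4.26% higher and 3.77% lower of all genes. The time effect with HER2 siRNA minus that with control siRNA passed for no mitosis gene by limma, with none higher and 25 lower (41%) at an unadjusted p under 0.05, against 5.07% higher and 2.98% lower of all genes. For DNA replication, 16 rose with HER2 siRNA and estrogen, 1 with HER2 siRNA and vehicle (median -0.02) and 19 with control siRNA and estrogen (median 0.31). Of all genes 3.06%, 3.03% and 2.53% rose in these conditions, in the same order. The difference from vehicle passed for MCM6 (0.60, adjusted p = 0.0124), with 28 members higher (56%) and none lower at an unadjusted p under 0.05, against the same 4.26% and 3.77%. The difference from control siRNA passed for none by limma, with none higher and 2 lower (4.0%) at an unadjusted p under 0.05, against 5.07% and 2.98%.

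**Figure D3:**
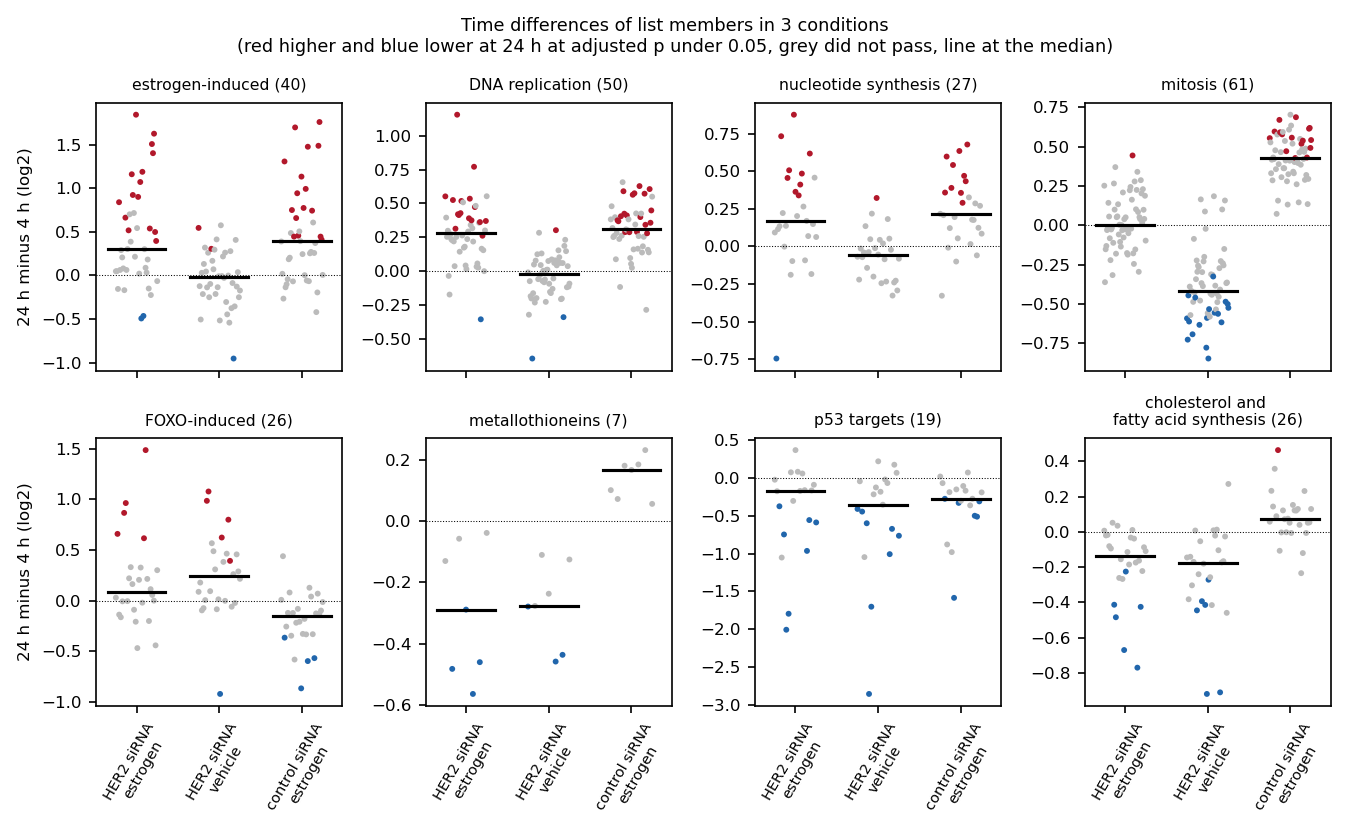
Differences of 24 h minus 4 h (vertical axis, log2) for the tested members of 8 lists, by condition, 1 point per gene. Red points rose and blue points fell at an adjusted p under 0.05, grey points did not pass and the line is the median. The mitosis medians are 0.00 with HER2 siRNA and estrogen, -0.42 with HER2 siRNA and vehicle and 0.43 with control siRNA and estrogen, and the DNA replication medians 0.28, -0.02 and 0.31.

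The aryl hydrocarbon receptor targets held the largest falls. This receptor senses planar aromatic compounds and induces cytochromes that oxidise them. CYP1B1, which also hydroxylates estrogens, had levels of 9.17, 8.14 and 8.26 at 24 h and 11.61, 10.78 and 10.77 at 4 h. CYP1A1 had levels of 11.17, 10.40 and 10.21 at 24 h and 13.47, 12.59 and 12.94 at 4 h. CYP1B1 fell by 2.53 on the log2 scale (SE 0.41), which is 5.77-fold, and CYP1A1 by 2.40 (SE 0.44), which is 5.29-fold, and in both replicate 1 was the highest array at each time. TIPARP, a target of the receptor that restrains it, fell by 0.78, and its call ended without replicate 1 at 4 h (adjusted p = 0.251) and in 4 other fits that left out 1 array. Of 8 members 3 fell (37.5% against 3.15%), and the median was -0.64. These genes fell in the other conditions too, CYP1B1 by 3.38 and CYP1A1 by 2.19 with HER2 siRNA and vehicle, and by 2.60 and 4.30 with control siRNA and estrogen.

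Targets of p53 fell in 7 of 19 cases (36.8% against 3.15% of all genes) and rose in none, with a median of -0.18. GDF15, a stress-induced cytokine, had levels of 6.6, 6.56 and 5.66 at 24 h and 8.49, 8.29 and 7.43 at 4 h, with replicate 3 lowest at both times, and fell by 1.79 on the log2 scale. FAS, a death receptor, had levels of 3.65, 3.58 and 3.26 at 24 h and 6.0, 4.95 and 5.57 at 4 h, so its 24 h arrays were under the filter's level of 5, and it passed the filter through 4 h arrays, where it was higher. DDB2, a DNA damage sensor, fell by 0.75 and CCNG1, cyclin G1, by 0.38. CDKN1A, the p21 inhibitor, had a difference of -1.05 ± 0.32 that did not pass (adjusted p = 0.0574). The count of 7 was 4 without replicate 1 at 4 h and 8 without replicate 3 at 4 h. It was 8 with HER2 siRNA and vehicle and 6 with control siRNA and estrogen, where 3.43% of all genes fell in each. PMAIP1, a p53-induced BCL2 family member that promotes cell death, had levels of 8.58, 8.42 and 8.40 at 24 h and 9.02, 9.37 and 9.46 at 4 h and fell by 0.81 on the log2 scale.

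Targets of NRF2, the regulator of the oxidative stress response, had a median of -0.60, against -0.009 over all genes. All 12 had a negative difference, but only 2 passed (16.7% against 3.15% of all genes). At an unadjusted p under 0.05 by limma, 9 of the 12 were lower (75%), against 10.3% of all genes. SLC7A11, the cystine transporter, had levels of 7.67, 7.15 and 6.26 at 24 h and 9.01, 9.03 and 7.79 at 4 h. It fell by 1.58 on the log2 scale (adjusted p = 0.0172), and its call ended without replicate 3 at 24 h (adjusted p = 0.138), replicate 1 at 4 h (adjusted p = 0.0913) or replicate 2 at 4 h (adjusted p = 0.0916). TXNRD1, thioredoxin reductase, fell by 0.58 and lost its call without the same 3 arrays or without replicate 2 at 24 h. AKR1C1 (-1.18 ± 0.40) and AKR1C2 (-1.26 ± 0.40), closely related aldo-keto reductases whose probes may share targets, did not pass (adjusted p = 0.0849 and 0.0646). The count of 2 was 7 without replicate 3 at 4 h, 4 without replicate 1 at 24 h, 1 without replicate 2 at 24 h and 0 without replicate 1 at 4 h, replicate 2 at 4 h or replicate 3 at 24 h. It was 5 with HER2 siRNA and vehicle (median -0.65) and 2 with control siRNA and estrogen (median -0.62), where 3.43% of all genes fell in each.

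Chaperones of the endoplasmic reticulum fell in 6 of 19 cases (31.6% against 3.15% of all genes). All 19 had a negative difference, with a median of -0.24 against -0.009 over all genes. HSPA5, the main chaperone there, had levels of 12.74, 12.68 and 12.48 at 24 h and 13.20, 13.40 and 13.02 at 4 h and fell by 0.57 on the log2 scale. DNAJC3, a cochaperone, fell by 0.39. The count of 6 was 9 without replicate 3 at 4 h, 3 without replicate 1 at 4 h and 2 without replicate 2 at 4 h, replicate 2 at 24 h or replicate 3 at 24 h. It was 3 with HER2 siRNA and vehicle (median -0.23) and 3 with control siRNA and estrogen (median -0.11), where 3.43% of all genes fell in each. Of 22 ATF4 and amino acid response genes, SLC7A11 and DDIT4, an inhibitor of mTORC1 (-0.50 ± 0.11), fell and STC2 rose. That is 9.1% lower and 4.5% higher, against 3.15% and 3.06% of all genes. The count that fell was 6 without replicate 3 at 4 h, 1 without replicate 1 or replicate 2 at 4 h and 0 without replicate 3 at 24 h.

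Lipid synthesis genes fell in 6 of 26 cases (23.1% against 3.15% of all genes) and rose in none, with a median of -0.13. SCD, the desaturase that makes oleate, had levels of 10.75, 10.71 and 10.65 at 24 h and 11.47, 11.57 and 11.38 at 4 h, a fall of 0.77 on the log2 scale (SE 0.08). FASN, fatty acid synthase, fell by 0.48, FADS2, a desaturase, by 0.41 and SREBF1, the transcription factor of fatty acid synthesis, by 0.42. INSIG1, which retains that factor in the endoplasmic reticulum, fell by 0.67 and LSS, lanosterol synthase, by 0.23. SREBF1 lost its call without replicate 1 at 4 h (adjusted p = 0.0659), FASN with the mean of its probe sets (adjusted p = 0.0851) and FADS2 with only the groups compared in the fit (adjusted p = 0.0509). The count of 6 was 3 without replicate 1 at 4 h. It was 6 with HER2 siRNA and vehicle, while with control siRNA and estrogen none fell and 1 rose. Of all genes 3.43% fell in each of these conditions, and 2.53% rose with control siRNA and estrogen. The difference from control siRNA passed for SCD (-0.65 ± 0.11).

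Metallothioneins, small proteins that bind zinc and copper, fell in 4 of 7 cases (57.1% against 3.15% of all genes). MT1X had levels of 8.77, 9.17 and 9.11 at 24 h and 9.70, 9.56 and 9.47 at 4 h, a fall of 0.56 on the log2 scale. MT1F fell by 0.48, MT2A by 0.46 and MT1H by 0.29. These genes are near-identical, so probes may share transcripts. The count was 2 without replicate 1 at 4 h or without replicate 1 at 24 h, each time by loss of MT2A and MT1H. The median was -0.29 with HER2 siRNA and estrogen. With HER2 siRNA and vehicle 3 of the 7 fell, with a median of -0.28, where 3.43% of all genes fell. With control siRNA and estrogen none of the 7 passed, and the median was 0.17. There 2 were higher and none lower at an unadjusted p under 0.05 by limma, where 8.3% of all genes were higher and 11.7% lower.

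FOXO-induced genes rose in 5 of 26 cases (19.2% against 3.06% of all genes) and fell in none, with a median of 0.09. PDK4, a kinase that shuts pyruvate dehydrogenase, had levels of 5.74, 6.25 and 6.52 at 24 h and 4.60, 4.60 and 4.85 at 4 h, a rise of 1.49 ± 0.20. PDK4 reached the filter's level of 5 only with HER2 siRNA at 24 h, so it was tested only because it was higher there. CITED2, a transcriptional coregulator, rose by 0.87 ± 0.14, DEPP1, a regulator of autophagy, by 0.96, BCL6, a transcriptional repressor, by 0.66 ± 0.16 and MXI1, an antagonist of MYC, by 0.62 ± 0.14. The count was 2 without replicate 1 at 4 h or replicate 3 at 24 h, with averaged probe sets or with only the groups compared in the fit, and 3 without replicate 2 at 24 h, and BCL6 and MXI1 were among the calls that ended without replicate 1 at 4 h (adjusted p = 0.0904 and 0.0835). With HER2 siRNA and vehicle 5 members rose and 1 fell, where 3.03% of all genes rose and 3.43% fell. With control siRNA and estrogen none rose and 4 fell, where 2.53% of all genes rose and 3.43% fell. The difference from control siRNA passed for PDK4 (1.44), with 12 members higher (46.2%) and none lower at an unadjusted p under 0.05, against 5.07% and 2.98% of all genes.

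Of 21 interferon response genes 3 rose (14.3% against 3.06% of all genes), HERC5, HERC6, a related protein (1.37 ± 0.14), and IFIH1, an RNA sensor (0.48 ± 0.14), and the median was -0.04. HERC5 passed the filter on low levels only through this condition. IFIH1 lost its call without replicate 1 at 24 h, replicate 2 at 24 h, replicate 1 at 4 h or replicate 3 at 4 h. HSPB8, a small heat shock protein, had levels of 10.33, 10.95 and 10.96 at 24 h and 9.29, 9.57 and 9.55 at 4 h. HSPB8 rose by 1.27 ± 0.21 and was the only member of 10 heat shock genes to rise (10% against 3.06% of all genes). Of 14 NF-kB targets CXCL8, a neutrophil chemokine, fell by 1.15 and LCN2, an iron-binding lipocalin, by 1.25, and TNFAIP2 rose by 0.37 but lost its call on leaving out 1 array in 5 of the 6 cases. That is 14.3% lower and 7.1% higher, against 3.15% and 3.06% of all genes. CXCL8 lost its call without replicate 3 at 24 h (adjusted p = 0.0953), replicate 1 at 4 h (adjusted p = 0.0518) or replicate 2 at 4 h (adjusted p = 0.0731), while that of LCN2 held. TWIST1, a transcription factor of mesenchymal cells, had levels of 11.20, 11.04 and 11.11 at 24 h and 10.20, 10.47 and 10.39 at 4 h, and rose by 0.76 ± 0.10. It rose by 0.84 with HER2 siRNA and vehicle and by 0.39 with control siRNA and estrogen.

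Of the 15 genes with the largest falls, several belong to none of these lists. TP53INP2, a regulator of autophagy, had levels of 8.31, 8.33 and 8.03 at 24 h and 9.34, 9.58 and 9.44 at 4 h, a fall of 1.23 on the log2 scale. RIPOR3 fell by 1.24, NTN4, a netrin with no 24 h array at the filter's level of 5, by 1.25 and ANKRD22 by 1.05. The calls of these 4 genes held in every alternative run that tested them, 18 for NTN4 and 19 for each of the others. UPP1, uridine phosphorylase, fell by 1.11 and MAFF, a small MAF transcription factor, by 1.09, and both lost the call without replicate 3 at 24 h or replicate 1 at 4 h, UPP1 also without replicate 2 at 4 h.

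In the other lists few members passed. Of all genes 3.06% rose, against 10.7% of ribosome biogenesis, 10% of hypoxia and glycolysis, 13.3% of clock and 10.5% of MAPK output genes. Among immediate early, BCL2 family and estrogen-repressed genes it was 9.5%, 7.1% and 11.8%. Of all genes 3.15% fell, against 3.3% of hypoxia, 6.7% of clock, 14.3% of BCL2 family and 5.9% of estrogen-repressed genes. Of 28 ribosome biogenesis genes FBL, fibrillarin (0.38 ± 0.06), NOLC1 (0.41 ± 0.08) and NHP2 (0.27 ± 0.07) rose and none fell, with a median of 0.11. NHP2 lost its call in 4 of the 6 fits that left out 1 array, those without replicate 2 or 3 at 24 h or replicate 2 or 3 at 4 h (adjusted p = 0.084 to 0.144), and all 3 lost theirs with only the groups compared in the fit. Of 30 hypoxia and glycolysis genes HK2, hexokinase, fell by 0.57 on the log2 scale, while MXI1, EGLN3, an oxygen sensor (0.42 ± 0.10), and PKM, pyruvate kinase (0.36 ± 0.10), rose. The count of 3 that rose was 0 without replicate 1 at 4 h and 1 without replicate 2 or replicate 3 at 24 h. Of 15 clock genes HLF (0.70 ± 0.15) and NPAS2 (0.60 ± 0.16) rose and BHLHE40, a repressor, fell by 0.70 on the log2 scale. Without replicate 3 at 24 h none of the 3 passed (adjusted p = 0.0534, 0.106 and 0.0625). NPAS2 lost its call in 5 of the 6 fits that left out 1 array, all but that without replicate 1 at 24 h, and BHLHE40 in 4, those without replicate 1 or 3 at 24 h or replicate 2 or 3 at 4 h. Among 19 genes of MAPK pathway output EPHA4, an ephrin receptor (1.07 ± 0.17), and IL1RAP, a subunit of interleukin receptors (0.54 ± 0.15), rose, and of these EPHA4 alone kept its call in every alternative run. IL1RAP lost its call without replicate 1 at 24 h, replicate 3 at 24 h or replicate 1 at 4 h (adjusted p = 0.123, 0.151 and 0.246). Of 21 immediate early genes KLF10 (0.51 ± 0.15) and CCN1 (0.28 ± 0.08) rose, and the count was 0 in 5 of the 6 fits that left out 1 array, all but that without replicate 3 at 4 h. In the BCL2 family BCL2, which blocks cell death, rose by 0.47 ± 0.14 (adjusted p = 0.0499), and PMAIP1 and BMF (-0.56 ± 0.17), which promote it, fell. BCL2 lost its call in all 6 fits that left out 1 array (adjusted p = 0.0566 to 0.177) and differed by 0.052 with averaged probe sets (adjusted p = 0.848). BMF lost its call in 5 of the 6, all but that without replicate 3 at 4 h (adjusted p = 0.0728 to 0.239). Of 17 estrogen-repressed genes BCL6 and BTG1 (0.42 ± 0.10) rose and BMF fell, with a median of 0.01. Without replicate 3 at 24 h or replicate 1 at 4 h neither BCL6 (adjusted p = 0.0979 and 0.0904) nor BTG1 (adjusted p = 0.116 and 0.109) passed.

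Lysosome and autophagy genes fell in 5 of 26 cases (19.2% against 3.15% of all genes), with a median of -0.17. WIPI1, which acts in autophagosome formation, fell by 0.87 and NEU1, a lysosomal sialidase, by 0.48, and both calls held in every alternative run. The proteases CTSA and CTSL fell by 0.41 and 0.45, and both lost the call without replicate 2 at 4 h (adjusted p = 0.0537 and 0.0705). The count was 2 without that array and 3 without replicate 2 or replicate 3 at 24 h. It was 2 with HER2 siRNA and vehicle (median -0.05) and 6 with control siRNA and estrogen (median -0.2), where 3.43% of all genes fell in each. Among 20 luminal epithelial genes 4 fell (20% against 3.15% of all genes), ELF3 (-0.56 ± 0.11) and ELF5 (-0.38 ± 0.10), transcription factors, KRT7, a keratin (-0.41 ± 0.11), and MUC1, a mucin (-0.47 ± 0.12). Of these ELF3 alone kept its call in every alternative run. The luminal count was 1 without replicate 3 at 4 h, replicate 2 at 4 h or replicate 2 at 24 h, and 2 without replicate 1 or replicate 3 at 24 h. The 7 basal and mesenchymal genes had TWIST1 as their 1 change (14.3% higher against 3.06% of all genes). The 8 tested markers of fibroblasts, leukocytes and endothelial cells had none, also at an unadjusted p under 0.05 by limma.

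**Figure D4:**
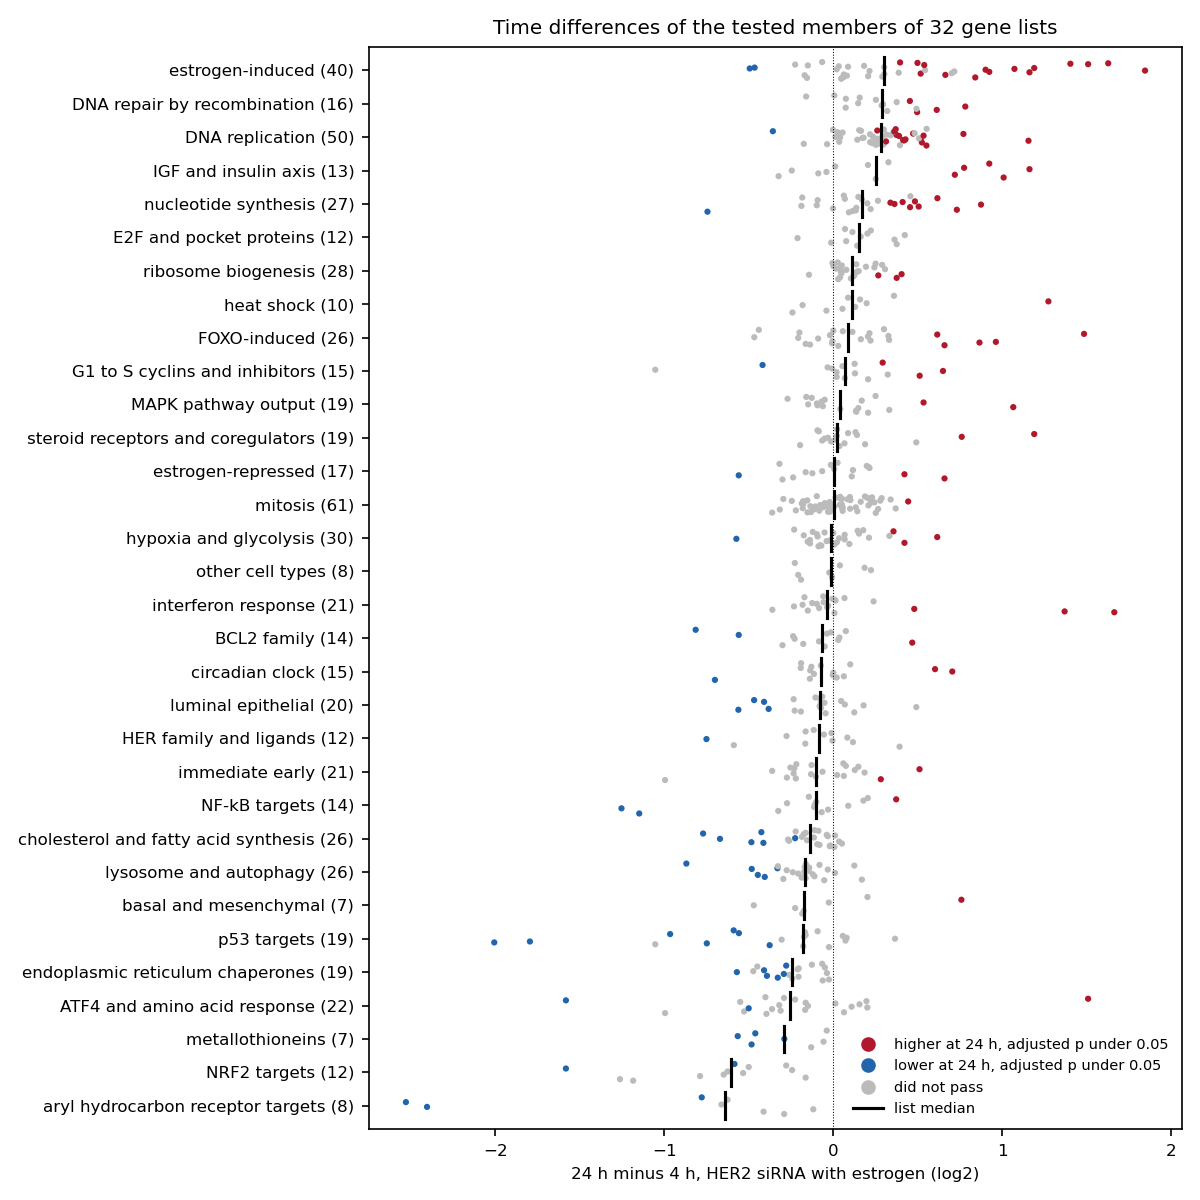
Differences of 24 h minus 4 h (horizontal axis, log2) with HER2 siRNA and estrogen for the tested members of 32 lists, 1 point per gene, with the number tested after the name and the list median as a bar. Red points rose and blue points fell at an adjusted p under 0.05 and grey points did not pass. The estrogen-induced list has the highest median, 0.30, and the aryl hydrocarbon receptor targets the lowest, -0.64.

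The time differences with HER2 siRNA and estrogen were set beside those with HER2 siRNA and vehicle, where 926 genes differed (6.46%, 434 or 3.03% higher and 492 or 3.43% lower), and with control siRNA and estrogen, where 855 differed (5.96%, 363 or 2.53% higher and 492 or 3.43% lower). These comparisons share no arrays with it, though all arrays share a platform and a normalisation. Across the 14335 genes the differences correlated with r = 0.567 with vehicle, r = 0.564 with control siRNA and r = 0.225 with control siRNA and vehicle, and genes are not independent. Of the genes that rose, 152 also rose with vehicle, which is 34.7% of those with estrogen and 35% of those with vehicle, and 148 also rose with control siRNA, 33.8% and 40.8% of the lists. Of the genes that fell, 162 also fell with vehicle (35.8% and 32.9%) and 160 with control siRNA (35.4% and 32.5%). In each case at most 3 genes passed in opposite directions.

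The time effect with estrogen minus that with vehicle passed for 74 genes (0.516%), 57 higher (0.398%) and 17 lower (0.119%). TCN1 had the largest, 3.66 ± 0.37, with levels of 7.61 ± 0.27 at 24 h and 7.65 ± 0.26 at 4 h with vehicle (SD, n = 3 each). KLK11 differed by 2.46 ± 0.26, KLK10 by 1.99 ± 0.23, TFF1 by 1.76 ± 0.22 and DSCAM-AS1 by 1.72 ± 0.21, and with vehicle none of these 5 passed between times. Their calls held in every alternative run that tested them, 24 for KLK10 and 25 for each of the others. STC2 (1.86 ± 0.29), MYBL1 (1.85) and SLC6A14 (1.71 ± 0.33) completed the 8 with the largest positive difference. With HER2 siRNA and vehicle MYBL1 reached the filter's level of 5 on no array, and KLK10 on 1 array at each time. Most vehicle values of these genes thus lay under that level, where a time effect may not show. The call of MYBL1 ended on leaving out any of 9 arrays or with averaged probe sets, and that of SLC6A14 without replicate 3 of HER2 siRNA estrogen at 24 h. Of the 40 estrogen-induced genes 8 passed, among them IRS1 (1.14), IGFBP4 (0.87) and TPD52L1, a trafficking protein (0.65). Of the nucleotide genes RRM2 (0.94), CTPS1 (0.77) and IMPDH2 (0.55) passed.

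On the lower side, GRIK2, a kainate type glutamate receptor, had levels of 5.93, 5.72 and 5.77 at 24 h and 6.67, 6.91 and 7.11 at 4 h with HER2 siRNA and estrogen. With vehicle it averaged 7.03 ± 0.33 at 24 h and 6.49 ± 0.51 at 4 h, and the time effects differed by -1.63 ± 0.30. UBE2QL1, a ubiquitin-conjugating enzyme homologue, fell by 1.22 on the log2 scale with estrogen and differed by -0.01 with vehicle, a difference of -1.21 ± 0.18. CELF2, an RNA-binding protein (-1.16 ± 0.17), and MME, the endopeptidase neprilysin (-0.88 ± 0.16), rose with vehicle, by 0.94 ± 0.12 and 0.76 ± 0.11, and did not pass with estrogen (-0.23 and -0.12). The same held for REG4 (-1.19 ± 0.23) and SCGN, a calcium-binding protein (-0.81 ± 0.17), whose calls each ended on leaving out 1 of several arrays. TMPRSS2, a membrane protease (-0.73 ± 0.11), and CAMK1D, a calcium-dependent kinase (-0.77 ± 0.16), fell with estrogen. The call of CAMK1D ended on leaving out any of 6 arrays. That of TMPRSS2 ended with only the groups compared in the fit. It also ended with averaged probe sets, where the difference was -0.194 (adjusted p = 0.664). Of the 3 probe sets of TMPRSS2, 1 passed between times with estrogen.

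The time effect with HER2 siRNA minus that with control siRNA, both with estrogen, passed for 32 genes (0.223%), 27 higher (0.188%) and 5 lower (0.0349%). ALPP differed by 1.82 ± 0.21, with levels of 4.46 ± 0.22 at 24 h and 4.54 ± 0.04 at 4 h with control siRNA (SD, n = 3 each), and it rose by 1.26 ± 0.15 with HER2 siRNA and vehicle. All 6 of its arrays with control siRNA and estrogen were under the filter's level of 5, as were those of PDK4, so both were tested only because of the HER2 siRNA arrays at 24 h. CCR2, a chemokine receptor gene (1.55 ± 0.23), PDK4, RAI2 (1.39 ± 0.23) and CRIM1-DT, a noncoding transcript (1.37 ± 0.27), had the same form, rising with HER2 siRNA under estrogen and under vehicle and not with control siRNA. STC2 (1.70 ± 0.29), DSCAM-AS1 (1.59 ± 0.21) and KLK10 (1.53 ± 0.23) passed against vehicle and against control siRNA. Against control siRNA the call of KLK10 ended without the 3 arrays numbered apart (adjusted p = 0.0558 by limma). That of STC2 ended in the same run and with only the groups compared in the fit. With control siRNA and estrogen KLK10 reached the filter's level on 3 arrays at 24 h and 1 at 4 h. STC2 averaged 7.96 ± 0.10 at 24 h and 8.16 ± 0.17 at 4 h with control siRNA and estrogen, so every array with HER2 siRNA and estrogen at 24 h was above it. NR3C1 (0.87), HERC5 (1.21) and NPAS2, a clock transcription factor (1.25), passed as well. HERC5 reached the filter's level of 5 on no array with control siRNA. CCR2 and CRIM1-DT reached it on at most 1 array at either time with control siRNA and estrogen.

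The 5 genes with a lower time effect under HER2 siRNA than under control siRNA were PMAIP1 (-1.09 ± 0.23), MT1X (-0.75 ± 0.15), PROM2, a membrane protein (-0.69 ± 0.14), MB, myoglobin (-0.65 ± 0.10), and SCD. All 5 fell with HER2 siRNA and estrogen and with HER2 siRNA and vehicle. MB had levels of 9.70, 9.67 and 9.74 at 24 h and 10.60, 10.37 and 10.51 at 4 h with HER2 siRNA and estrogen, against 9.79 ± 0.05 at 24 h and 9.93 ± 0.06 at 4 h with control siRNA (SD, n = 3). The calls of ALPP, CCR2, DSCAM-AS1 and MB held in every alternative run that tested them, which was 24, 23, 25 and 25 runs. Those of PDK4, CRIM1-DT, PMAIP1, MT1X and PROM2 each ended on leaving out any of 7 to 10 arrays. The call of RAI2 ended without the 3 arrays numbered apart. That of SCD ended in the same run, with averaged probe sets and with only the groups compared in the fit. The count of 32 was 21 without replicate 2 of HER2 siRNA estrogen at 4 h and 10 without the 3 arrays numbered apart, and the count of 74 was 38 without replicate 3 of HER2 siRNA estrogen at 24 h.

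**Figure D5:**
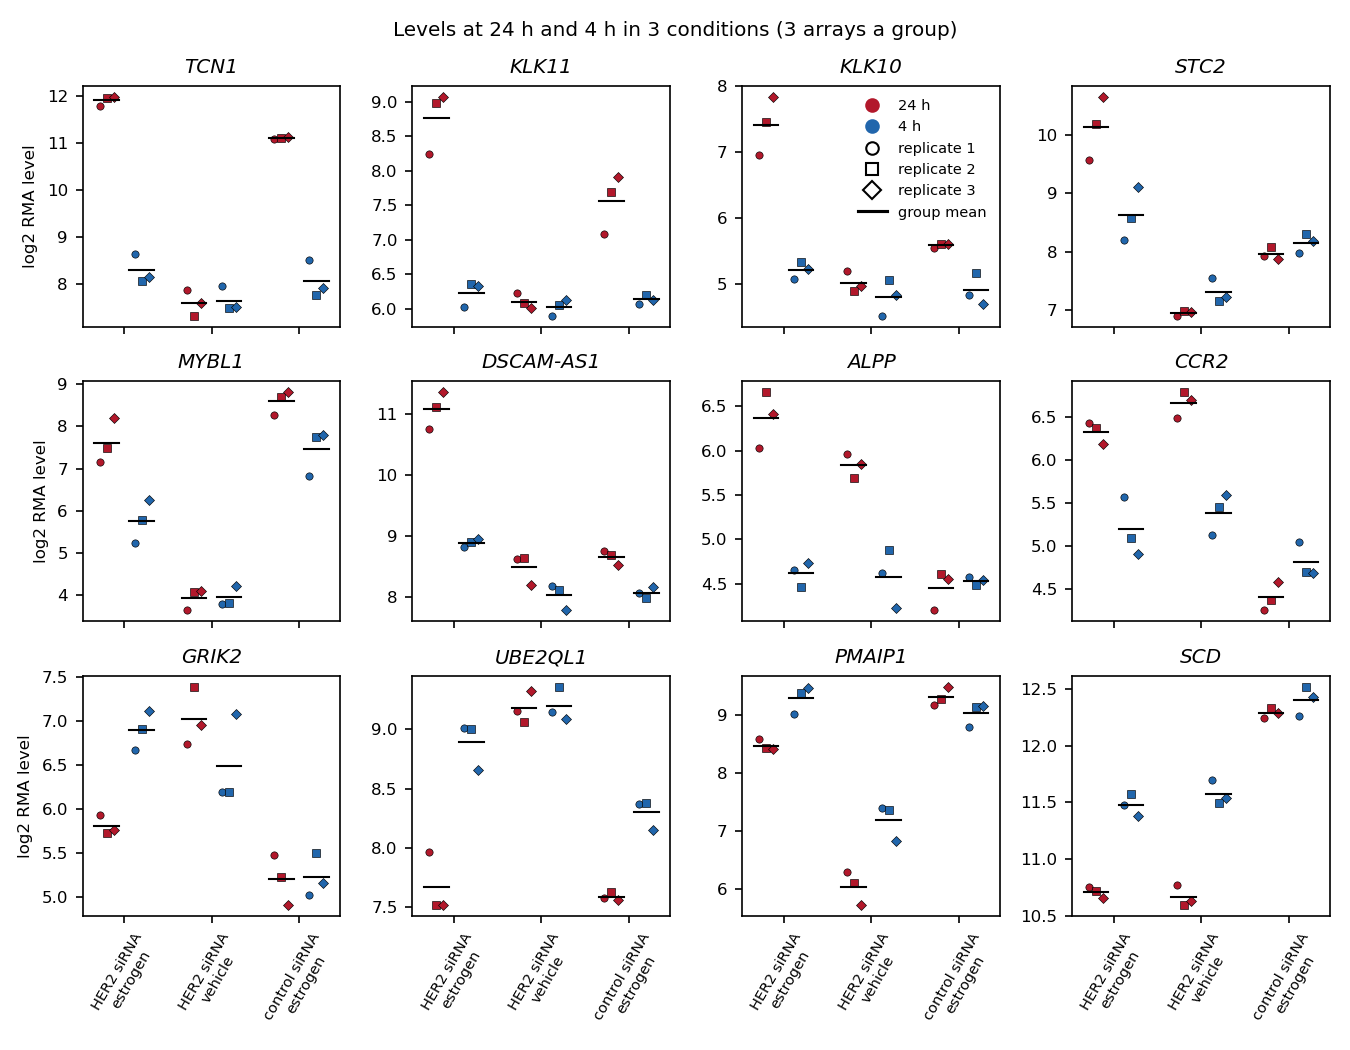
Log2 RMA levels (vertical axis) of 12 genes at 24 h (red) and 4 h (blue) with HER2 siRNA and estrogen, HER2 siRNA and vehicle, and control siRNA and estrogen, 1 point per array, with the replicate number as the shape and the group mean as a line. TCN1 averages 7.61 at 24 h with HER2 siRNA and vehicle, below each array with HER2 siRNA and estrogen at 24 h, and ALPP averages 4.46 at 24 h with control siRNA and estrogen.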

How the data were processed

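The authors deposited 1 table of log2 values for 24 arrays (Affymetrix HG-U133 Plus 2.0, total RNA), normalised by RMA per the submitters' processing notes, with its version not given in the sources used here. Of 54675 probe sets, 41091 have 1 gene symbol in the platform annotation, 1801 have several and 11721 have none, and 62 are controls. They name 19775 genes. Each was represented by its probe set of highest mean level over the 24 arrays, and the 14335 genes with a log2 level of 5 or more in at least 3 arrays were tested. Levels are relative, arrays give no read depth, and their number limits the precision. Groups came from titles. limma 3.58.1 (R 4.3.3) fitted 1 mean per group over all 24 arrays with eBayes, and p-values were adjusted by Benjamini-Hochberg over all genes tested, with a threshold of 0.05. Differences of time effects are contrasts of the same fit. The fit was tested on simulated data. Tables and figures used Python 3.11.15, pandas 2.3.3 and matplotlib 3.10.9. Named genes are the 15 with the largest rise and the 15 with the largest fall among those called with groups that do not overlap, ERBB2, up to 4 called members per list in order of adjusted p, and up to 8 genes each way in the differences between time effects. Other list members given with values were chosen after their values were seen. The members, lists and rules were chosen with earlier results of these data known. The 32 lists hold 760 entries, of which 654 were tested. Another 48 failed the filter on low levels, and for 58 no probe set was found. Same-numbered arrays at 24 h and 4 h had correlations of deviations of 0.159, -0.166 and 0.483, so the numbers were not taken to pair the arrays. Promoters matched 104 of 120 named genes and 504 of 615 list genes. A gene with several listed starts counted as holding a motif if any start did.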

Additional observations from a re-analysis of the deposited data

Results flagged for a closer look

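The time effect (24 h minus 4 h, log2) with HER2 siRNA and estrogen differed from that with HER2 siRNA and vehicle, by limma's test of the difference with adjusted p under 0.05, for 16 named genes. The difference was 3.66 for TCN1, 2.46 for KLK11, 1.99 for KLK10, 1.86 for STC2, 1.85 for MYBL1, 1.76 for TFF1, 1.72 for DSCAM-AS1 and 1.71 for SLC6A14. It was -1.63 for GRIK2, -1.21 for UBE2QL1, -1.19 for REG4, -1.16 for CELF2, -0.88 for MME, -0.81 for SCGN, -0.77 for CAMK1D and -0.73 for TMPRSS2.

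By the same test it differed from the time effect with control siRNA and estrogen for 13 named genes. The difference was 1.82 for ALPP, 1.70 for STC2, 1.59 for DSCAM-AS1, 1.55 for CCR2, 1.53 for KLK10, 1.44 for PDK4, 1.39 for RAI2 and 1.37 for CRIM1-DT. It was -1.09 for PMAIP1, -0.75 for MT1X, -0.69 for PROM2, -0.65 for MB and -0.65 for SCD. Groups of 3 arrays are too small for a formal test of single arrays that stand apart, so each array was left out in turn.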

How the results depend on the processing

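No named difference changed direction under any alternative run. Of the 115 named genes past the threshold 53 lost the call under at least 1 alternative and 40 on leaving out at least 1 array, and of the 29 differences between time effects 17 and 10 did. Counts of called genes follow for the time difference with HER2 siRNA and estrogen, with HER2 siRNA and vehicle, with control siRNA and estrogen, and for the time effect with estrogen minus vehicle and with HER2 siRNA minus control siRNA. With the replicate block they were 1514, 1670, 1437, 198 and 106. The labels do not say what same-numbered arrays share, and the main fit has no term for the replicate number. With the replicate block and the number series the last 4 were 1662, 1425, 129 and 77. With only the groups compared they were 379, 52, 439, 20 and 20, and at an adjusted p of 0.01 they were 396, 229, 258, 35 and 19. Without the 3 arrays numbered apart the first was 507 and the last 10. Array weights gave 1876 with control siRNA and 90 for the last, an intensity trend with a robust prior 50 for the last, and a log2 filter of 7 gave 124 for estrogen minus vehicle. Leaving out 1 array at a time gave 422 to 903, 208 to 1089, 296 to 991, 38 to 111 and 21 to 42. In each case the cause was not tested. The other settings run (no filter, averaged probe sets, every probe set, equal array medians and quantile normalisation) moved none of these 5 totals by over 1.5 times. By direction, those lower with HER2 siRNA and vehicle were 802 with every probe set, against 492. Those lower for estrogen minus vehicle were 10 with averaged probe sets and 26 with quantile normalisation, against 17, and those lower for HER2 siRNA minus control siRNA were 3 with averaged or with every probe set, against 5. Counts within gene lists moved more. Of 40 such counts above 0, 25 moved by over 1.5 times with only the groups compared (24 to fewer), 20 without the 3 arrays numbered apart (all to fewer), 16 with averaged probe sets (15 to fewer), 8 with no filter, 8 with every probe set, and 4 each with equal array medians and quantile normalisation, all to fewer. With only the groups compared, 9 estrogen-induced genes rose and 1 endoplasmic reticulum chaperone, 3 lipid synthesis, 3 lysosome, 2 metallothionein and no NRF2 genes fell, and 2 DNA repair and no hypoxia genes rose. With averaged probe sets, 1 gene of the G1 to S list rose and 2 luminal genes fell, and with no filter or every probe set 3 chaperone genes fell. With the replicate block 11 list counts moved by over 1.5 times, none to fewer, among them 9 NRF2, 9 ATF4 and 10 chaperone genes that fell.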
